A study of Homo sapiens with 24 samples.

Results

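The transcripts described here belong to MYC, its paralog MYCN, their shared partner MAX, and the MAX-binding antagonists MNT, MXD1, MXD3, MXD4, MXI1 and MGA. They are 9 of the 23354 genes in the count table, chosen by gene symbol as the factors that pair with MAX, and all 9 symbols were found. The 2 acute myeloid leukemia (AML) cell lines labelled WT, MV4-11 and KG-1a, were grown in Iscove's medium with 10% serum. Each was left without drug or given 1 µM 8-chloro-adenosine (8CA) or 1 µM 8-amino-adenosine (8AA) for 8 h or 24 h. Untreated libraries carried the same time labels, so the 12 groups of 2 libraries (A and B) allowed each drug to be compared with untreated cells at its own time. Each line is a single established line, and nothing in the labels says that A and B were separate cultures, so the p-values measure only the spread between these libraries, which may be technical.

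MYC and MYCN are basic helix-loop-helix leucine zipper factors that bind DNA only when paired with MAX. The pairs occupy E-box sequences such as CACGTG and raise the transcription of genes for ribosome biogenesis, nucleotide synthesis and metabolism. The MXD proteins, MXI1, MNT and MGA also pair with MAX and compete for the same sites, where they bring histone deacetylase or Polycomb-type repressor complexes. In blood cells MYC is high in proliferating progenitors, while MXD levels rise as cells leave the cycle and differentiate.

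Promoter windows show which of these genes carry the network's own binding motif close to their start. Each window holds the 250 bases before a RefSeq transcription start (GRCh38.p14), read 5′ to 3′ on the gene's strand, with the E-box CACGTG (identical on both strands) in capitals. MXD4 and MNT are shown because they are the 2 members of the 8 with an entry whose window held the motif, and MYCN and MXD3 because their levels changed most in KG-1a beside MXD4. The MXD4 window lies on the minus strand at chr4:2262110-2262359, MNT on the minus strand at chr17:2401061-2401310, MYCN on the plus strand at chr2:15940300-15940549, and MXD3 on the minus strand at chr5:177312753-177313002.
MXD4: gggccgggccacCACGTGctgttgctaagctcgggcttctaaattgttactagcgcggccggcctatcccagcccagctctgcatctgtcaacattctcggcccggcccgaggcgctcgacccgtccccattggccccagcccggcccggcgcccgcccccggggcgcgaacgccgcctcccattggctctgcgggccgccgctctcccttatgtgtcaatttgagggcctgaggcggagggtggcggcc
MNT: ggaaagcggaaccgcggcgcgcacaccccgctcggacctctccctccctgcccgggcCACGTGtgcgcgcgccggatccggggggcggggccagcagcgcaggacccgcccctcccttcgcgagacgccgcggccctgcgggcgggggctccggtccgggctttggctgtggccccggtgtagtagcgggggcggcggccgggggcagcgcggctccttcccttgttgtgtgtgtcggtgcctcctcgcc
MYCN: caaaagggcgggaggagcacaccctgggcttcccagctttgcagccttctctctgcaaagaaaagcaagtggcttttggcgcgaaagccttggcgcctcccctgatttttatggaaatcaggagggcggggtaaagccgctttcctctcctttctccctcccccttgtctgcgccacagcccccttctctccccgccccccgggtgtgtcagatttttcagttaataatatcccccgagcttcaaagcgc
MXD3: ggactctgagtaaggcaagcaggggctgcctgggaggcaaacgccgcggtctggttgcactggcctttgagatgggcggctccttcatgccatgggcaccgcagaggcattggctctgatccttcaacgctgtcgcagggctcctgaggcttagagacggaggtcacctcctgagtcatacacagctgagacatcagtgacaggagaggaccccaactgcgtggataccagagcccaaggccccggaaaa
The MXD4 E-box began 238 bases before the start and the MNT E-box 193 bases before it. Of the 13 windows of the 8 members, 2 held the motif, and 2209 of all 34943 distinct windows in the table (6.32%) did. No window of MXD1, MXI1, MAX and MGA held these letters. A stretch just after the start was found in an annotated transcript of the gene (GENCODE) for MXD4 and MNT, but not for MYCN and MXD3. Whether these starts were used in these cells was not tested. A match in such a window is a description of sequence and not a measured binding site.

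The libraries held 18633963 to 24520078 counts in genes. Replicate counts differed from each other by a chi-square per degree of freedom of 1.43 to 5.20 in 11 groups and of 12.3 in KG-1a given 8AA for 24 h. Libraries A and B of that group therefore stand apart from the rest. For its called member changes the effect of leaving 1 of them out is given below. Apart from the count of MYC targets, other genes of that group are given with both libraries only. Of 5 markers of AML cells of both kinds, 5 reached 1 CPM (a count scaled to a common library size) in every MV4-11 library and 4 in every KG-1a library, the exception in KG-1a being CD33 (0.352 to 1.02 CPM). MV4-11 also passed for 5 of 6 of its own markers (all but CD14) and KG-1a for 3 of 4 (all but MN1). HOXA9, among the MV4-11 markers that passed, was higher in KG-1a (22.3 to 27.8 CPM) than in MV4-11 (7.11 to 9.40 CPM). Of 8 markers of other cell types, 0 passed in MV4-11 and 1 in KG-1a, the T cell receptor complex gene CD3E, at 22.2 to 78.3 CPM. In the count table, whose coordinates were read as hg19, MYC lies on chromosome 8, MYCN at chr2:16080683-16087129, MAX at chr14:65472819-65569413, MNT at chr17:2287354-2304258, MXD1 at chr2:70142173-70170076, MXD3 at chr5:176732501-176739292, MXD4 at chr4:2249160-2263739, MXI1 at chr10:111967363-112047123 and MGA at chr15:41913764-42062141.

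MYC was the most abundant transcript of the network in both lines, and MYCN separated the lines completely. Scaled by the exon length in the table, untreated MYC stood at 243 ± 21.0 CPM per kb in MV4-11 and 173 ± 15.1 in KG-1a (SD, n = 4 untreated libraries of both times), and MAX followed at 30.1 ± 1.17 and 35.96 ± 0.617. In MV4-11 the order went on with MXI1 at 17.4 ± 2.63, MGA at 12.4 ± 0.986, MXD4 at 10.8 ± 0.451, MNT at 10.8 ± 0.280, MXD1 at 3.28 ± 0.0663 and MXD3 at 3.21 ± 0.236 CPM per kb. The ranges over libraries overlapped between MGA and MXD4, between MXD4 and MNT, and between MXD1 and MXD3, so these neighbours in the order did not differ beyond their spread. In KG-1a it went on with MXD4 at 7.98 ± 0.554, MGA at 7.61 ± 0.241, MNT at 4.98 ± 0.348, MXD3 at 4.41 ± 0.526, MXI1 at 2.79 ± 0.199, MXD1 at 1.65 ± 0.113 and MYCN at 0.790 ± 0.0402 CPM per kb. There the ranges of MXD4 and MGA overlapped, and so did those of MNT and MXD3, while MYCN was the lowest member.

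All members tested differed between the untreated lines, in a table where most genes did. Of the 9 members, 3 were lower and 6 higher in MV4-11 at each time, with 82.2% of all genes called at 8 h (42.1% lower and 40.1% higher) and 82.0% at 24 h (41.0% and 41.0%) in the fit over all 24 libraries. A call here is an adjusted p below 0.05 in the quasi-likelihood test of edgeR, with Benjamini-Hochberg values taken over every gene tested, and so it is throughout. MXI1, an MXD-type repressor, had the widest gap apart from MYCN, with a level 5.18-fold higher in MV4-11 at 8 h and 7.39-fold higher at 24 h. MNT, the broadly expressed MYC antagonist, was higher in MV4-11 by 1.22 ± 0.07 and 1.01 ± 0.07 on the log2 scale (± SE), and MXD1 by 0.91 ± 0.11 and 1.06 ± 0.11. MYC was higher in MV4-11 by 0.49 ± 0.06 at both times, MGA by 0.67 ± 0.06 and 0.75 ± 0.06, and MXD4 by 0.58 ± 0.07 and 0.31 ± 0.07. MAX was lower in MV4-11, with differences of -0.26 ± 0.05 and -0.25 ± 0.05, and so was MXD3, with -0.38 ± 0.11 and -0.52 ± 0.11. The MXD3 difference at 8 h was -0.30 and no longer called without MV4-11 untreated 8 h library A. MYCN was at 0 counts in all 12 MV4-11 libraries and at 37 to 45 counts in the 4 untreated KG-1a libraries, a level at least 12.3-fold higher in KG-1a against a floor of 3 counts per library.

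**Figure D1:**
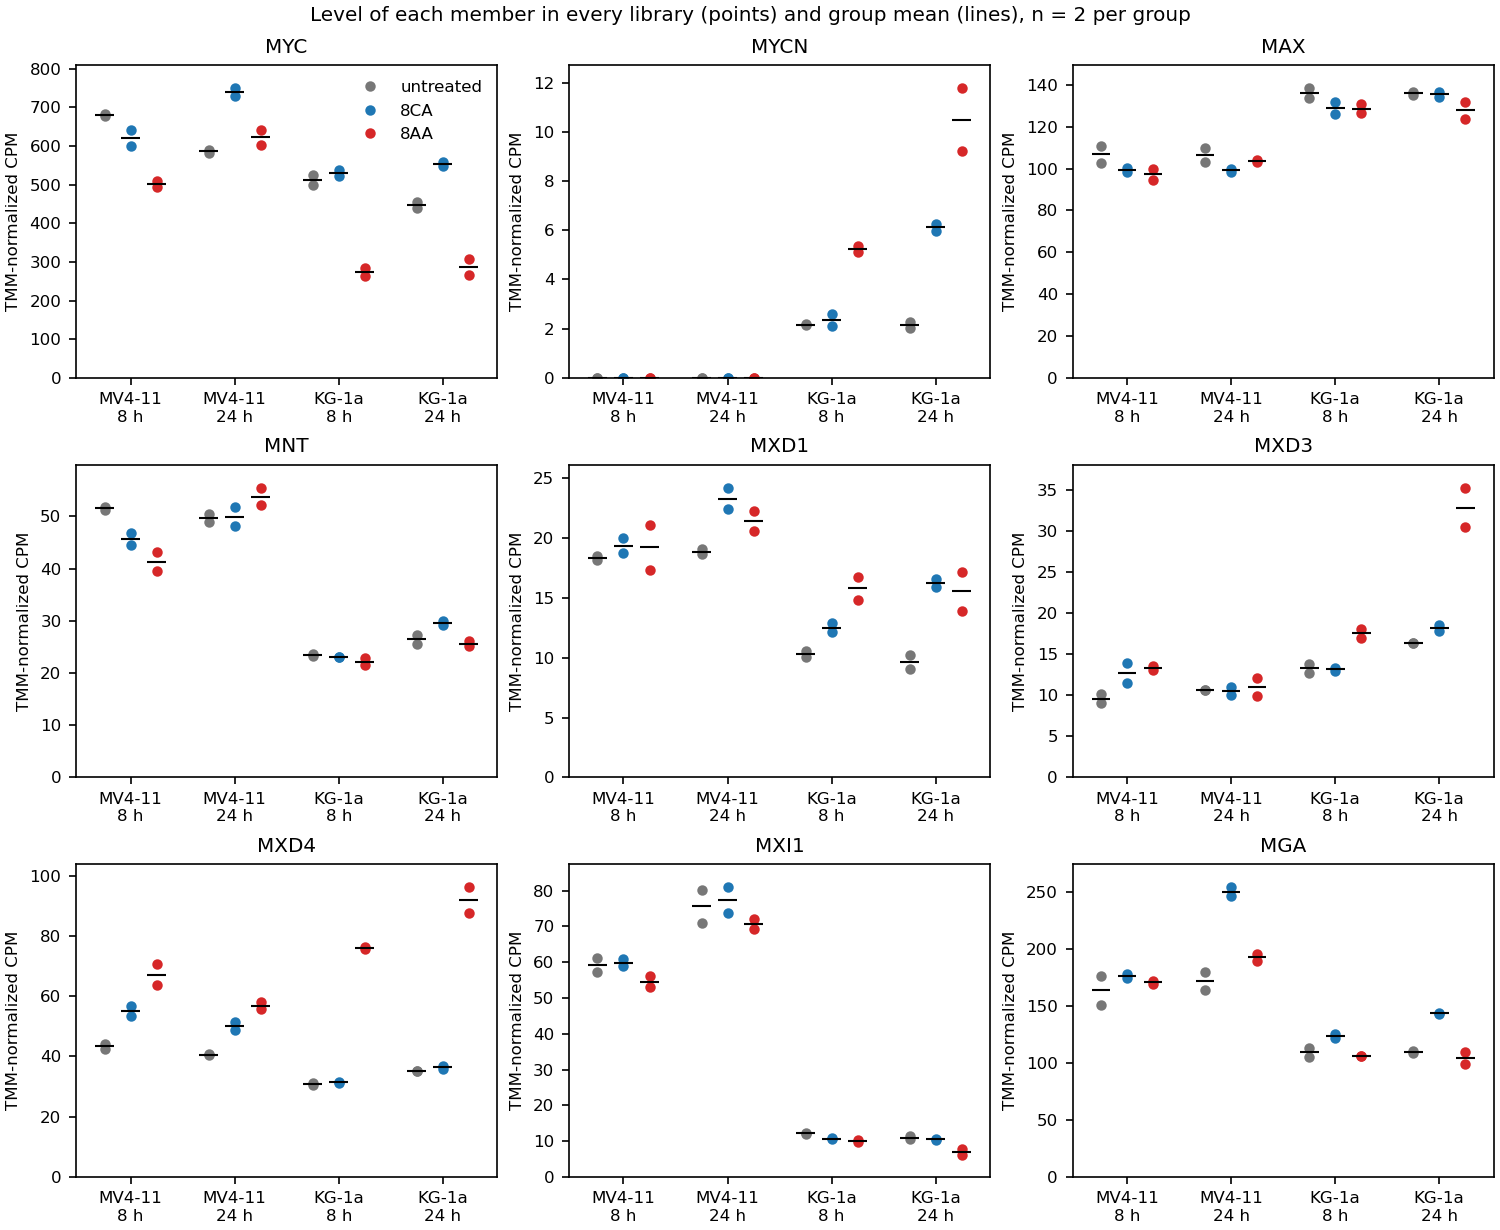
Level of each of the 9 members in CPM (counts scaled to a common library size, per line) in every library, with one panel per gene, the 12 groups along the x axis, points for the 2 libraries of a group and bars for their mean. MXD4 in KG-1a stands at 75.6 to 96.2 CPM under 8AA and at 30.5 to 36.9 in all other KG-1a libraries, and MYCN is at 0 throughout MV4-11.

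The question put to each line and time was how the 2 drugs changed the network against untreated cells of the same age. MYC fell with 8AA at 8 h in both lines and rose with 8CA at 24 h in both. With 8CA at 8 h it was not called in either line, although the small MV4-11 value was called under some alternatives. MYCN, detected only in KG-1a, rose with 8AA at both times and with 8CA at 24 h. The antagonist MXD4 rose under 8AA in all 4 settings, by more than 2-fold in KG-1a. In bulk RNA of this kind, fewer cells of a type and less RNA per cell cannot be told apart. All levels are scaled to the counts of their library, so a rise or fall is relative to the other transcripts. A change in total RNA would not be seen. Both drugs at 1 time share the same untreated libraries, so their changes are given side by side and are not counted as separate evidence.

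In MV4-11 the MYC level was 677 and 684 CPM in the untreated 8 h libraries (A and B), 601 and 642 with 8CA, and 495 and 509.7 under 8AA. The 8AA pair lay below both other pairs. The change was -0.44 ± 0.04 (log2, ± SE, adjusted p 4.97e-06) with 8AA, and with 8CA it was -0.13 ± 0.04 and missed the threshold (adjusted p 0.0752). That 8CA value was called with no filter on low counts (-0.13, adjusted p 0.0357), by DESeq2 (-0.14, adjusted p 0.0495) and without 8CA library B (-0.19, adjusted p 0.0471). At 24 h the untreated libraries held 590.0 and 582 CPM, the 8CA libraries 730.2 and 749, and the 8AA libraries 603 and 642. All treated libraries lay above the untreated pair, and the rise passed the test for 8CA, at 0.34 ± 0.04 (adjusted p 2.36e-05), while 8AA gave 0.09 ± 0.04 (adjusted p 0.158), a value called with library size alone (0.14) and upper-quartile scaling (0.12).

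In KG-1a the MYC level was 525 and 500.4 CPM without drug at 8 h, 539 and 523 with 8CA, and 284 and 264 under 8AA. The 8AA libraries stood far below the other 4, which overlapped. The fall with 8AA was -0.90 ± 0.06 (adjusted p 5.01e-08), against 0.05 ± 0.06 (adjusted p 0.788) with 8CA. At 24 h the untreated libraries held 441 and 455 CPM, the 8CA libraries 560.0 and 548, and the 8AA libraries 308 and 265. The drugs lay on opposite sides of the untreated pair, with no overlap. 8CA gave 0.31 ± 0.06 (adjusted p 0.000523) and 8AA -0.64 ± 0.06 (adjusted p 3.61e-07), the latter -0.76 without 8AA library A and -0.54 without B. MYC itself was lower at 24 h than at 8 h without drug, with a difference of -0.22 ± 0.04 in MV4-11 (adjusted p 0.0106). In KG-1a it was -0.20 ± 0.06 (adjusted p 0.0742). Over the 2 untreated times, 2 of 8 members were called in MV4-11 (MYC lower and MXI1 higher at 24 h, with 5.54% of all genes called, 2.16% lower and 3.38% higher) and 0 of 9 in KG-1a (4.45%, with 1.97% lower and 2.49% higher), where 4 had an unadjusted p below 0.05 and DESeq2 called 1. The MYC call in MV4-11 was lost without untreated 8 h library B (-0.22), 24 h library A (-0.23) or 24 h library B (-0.21).

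MYCN is the paralog best known from neural tumors and early progenitors. It had 39 and 45 counts in KG-1a without drug at 8 h (2.14 and 2.18 CPM), 44 and 50 after 8CA (2.09 and 2.6 CPM), and 120 and 119 under 8AA (5.37 and 5.13 CPM). At 24 h it had 45 and 37 counts without drug (2.27 and 2.01 CPM), 128 and 126 with 8CA (5.97 and 6.26 CPM), and 282 and 187 under 8AA (11.8 and 9.21 CPM). The 8AA pairs lay above the untreated pairs at both times, and at 24 h the 8CA pair lay between the others. The rise was 1.28 ± 0.18 with 8AA at 8 h (adjusted p 7.58e-05), 1.51 ± 0.18 with 8CA at 24 h (adjusted p 7.36e-06) and 2.30 ± 0.16 with 8AA at 24 h (adjusted p 2.30e-08), and with 8CA at 8 h the value was 0.11 ± 0.22 (adjusted p 0.888). The 8AA rise at 24 h amounts to 4.91-fold with a 95% interval of 3.85 to 6.25, and was 2.10 on the log2 scale without 8AA library A and 2.45 without B. Its counts were the lowest of the network in untreated KG-1a. With 8AA at 24 h they stood above those of MXI1 (146 and 158) in the same libraries. Even there the MYCN level stayed far below that of MYC. The antisense gene MYCNOS, which overlaps MYCN, had at most 4 counts in any library.

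MAX, the shared partner of the other factors, had the narrowest range of drug changes. Its level was 94.8 to 111 CPM in MV4-11 and 124 to 138 in KG-1a over all libraries of each line. The lowest MV4-11 value was in an 8AA library at 8 h and the highest in an untreated library of that time. No drug comparison of 8 was called, 1 of 8 had an unadjusted p below 0.05 (MV4-11 with 8AA at 8 h, -0.14 ± 0.05, adjusted p 0.0572), and DESeq2's test called 0. All 8 changes lay between -0.14 and -0.01, with 95% intervals inside -0.25 to 0.10. The MV4-11 value with 8AA at 8 h was called in edgeR with DESeq2 size factors (-0.15, adjusted p 0.0432) and without untreated library B (-0.20, adjusted p 0.0275), and the KG-1a value with 8AA at 24 h, -0.09, was -0.14 and called without 8AA library A.

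Among the MXD repressors, MXD4 changed in the most comparisons. MXD proteins recruit the SIN3 and histone deacetylase complex to MAX sites. In MV4-11 MXD4 was at 44.1 and 42.6 CPM without drug at 8 h, 53.6 and 56.8 with 8CA, and 63.6 and 70.7 under 8AA. At 24 h the values were 40.7 and 40.4, then 48.9 and 51.4, then 55.7 and 58.0. The 3 groups did not overlap at either time. All 4 changes passed the test, at 0.35 ± 0.06 (8CA, 8 h, adjusted p 0.00314), 0.63 ± 0.06 (8AA, 8 h, adjusted p 3.65e-06), 0.31 ± 0.06 (8CA, 24 h, adjusted p 0.00106) and 0.49 ± 0.06 (8AA, 24 h, adjusted p 4.59e-05).

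In KG-1a MXD4 rose where 8AA was given, to 76.5 and 75.6 CPM against 31.1 and 30.5 without drug and 31.6 and 31.3 with 8CA at 8 h. At 24 h it stood at 96.2 and 87.7 CPM with 8AA, 35.1 and 35.0 without drug, and 35.9 and 36.9 with 8CA. The lowest 8AA library stood well above the highest of the other 8. The rise with 8AA was 2.47-fold at 8 h (1.30 ± 0.06 on the log2 scale, adjusted p 1.47e-09) and 2.62-fold at 24 h (1.39 ± 0.06, adjusted p 1.57e-10). Without 8AA library A or B the 24 h value was 1.32 or 1.45. With 8CA the changes were 0.03 (95% interval -0.11 to 0.17) at 8 h and 0.05 (-0.08 to 0.19) at 24 h.

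MXD3, the family member most often tied to proliferating cells, rose with 8AA in KG-1a, from 13.8 and 12.8 CPM to 17.0 and 18.1 at 8 h and from 16.4 and 16.4 to 35.3 and 30.5 at 24 h. The 24 h pair was the highest in the series for this gene. The changes were 0.41 ± 0.09 (adjusted p 0.00313) and 1.01 ± 0.08 (adjusted p 1.10e-07), the latter 0.89 without 8AA library A and 1.10 without B. With 8CA the KG-1a values were -0.01 ± 0.10 at 8 h and 0.15 ± 0.09 at 24 h. In MV4-11 MXD3 went at 8 h from 9.08 and 10.1 CPM to 11.5 and 13.9 with 8CA and 13.0 and 13.6 with 8AA. These changes were 0.39 ± 0.12 (adjusted p 0.0483) and 0.47 ± 0.12 (adjusted p 0.00739), and at 24 h, with levels of 9.85 to 12.1 CPM in all groups, they were -0.01 ± 0.12 and 0.04 ± 0.12. The 8CA call was lost without untreated library A (0.31), untreated library B (0.46) or 8CA library B (0.25), with DESeq2 size factors (0.39), by DESeq2's test (0.39) and with only the 6 libraries of that line and time (0.39). The 8AA call was lost without untreated library A (0.39). Reads of MXD3 are uncertain, because it overlaps PRELID1 on the opposite strand, which had up to 5421 counts in a library, and the strand setting of the counting is not given in the sources used here. PRELID1 fell in KG-1a with 8AA at 24 h (-0.93 ± 0.06, adjusted p 9.94e-09) and in MV4-11 with 8AA at 8 h (-0.30 ± 0.06, adjusted p 0.00127). It also fell at 24 h with 8CA in KG-1a (-0.60, adjusted p 1.20e-06) and MV4-11 (-0.47, adjusted p 1.40e-05). With 8AA in MV4-11 it fell at 24 h as well (-0.25, adjusted p 0.00456), and MXD3 was not called in any of these. Where MXD3 rose with 8AA in KG-1a and 8CA in MV4-11 at 8 h, PRELID1 was not called (-0.12 and -0.14). The part of PRELID1 in the MXD3 values was not tested.

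MXD1, which rises during myeloid differentiation, was at 10.1 and 10.6 CPM in KG-1a without drug at 8 h, 12.9 and 12.1 with 8CA, and 14.9 and 16.8 under 8AA. At 24 h it was at 10.2 and 9.08, then 15.9 and 16.6, then 13.9 and 17.2. Every treated library lay above the untreated ones of its time. The rise passed for 8AA at 8 h (0.61 ± 0.11, adjusted p 0.000609), 8CA at 24 h (0.75 ± 0.11, adjusted p 7.40e-05) and 8AA at 24 h (0.68 ± 0.11, adjusted p 0.000141), and 8CA at 8 h gave 0.27 ± 0.12 (adjusted p 0.332). Without 8AA library A or B the 24 h value was 0.83 or 0.52. In MV4-11 the range over all libraries was 17.4 to 24.2 CPM, and only 8CA at 24 h passed (0.31 ± 0.09, adjusted p 0.0122), a call lost without untreated library B (0.29) or 8CA library A (0.25).

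MXI1 had the opposite course in KG-1a. It was at 12.3 and 11.9 CPM without drug and 9.63 and 10.2 with 8AA at 8 h, and at 11.3 and 10.6 without drug and 6.10 and 7.78 with 8AA at 24 h. The 8AA libraries lay below the untreated ones at both times. The falls were -0.29 ± 0.11 (adjusted p 0.0461) and -0.67 ± 0.12 (adjusted p 0.000175), the latter -0.50 without 8AA library A and -0.85 without B. The 8 h call was lost whenever any 1 of its 4 libraries was left out, with values of -0.27 and -0.31 without untreated A and B and -0.25 and -0.33 without 8AA A and B. It was also lost with library size alone (-0.25), upper-quartile scaling (-0.28) and DESeq2's test (-0.30). With 8CA it stood at 10.6 and 10.7 CPM at 8 h and 10.2 and 10.7 at 24 h, with changes of -0.18 ± 0.11 (adjusted p 0.514) and -0.07 ± 0.11 (adjusted p 0.616). No MV4-11 comparison was called for MXI1, at 52.9 to 80.9 CPM, where values ran from -0.12 to 0.03. Without drug it was higher at 24 h than at 8 h in MV4-11 by 0.35 ± 0.07 (adjusted p 0.00631), a call lost without 8 h library B (0.30) or 24 h library B (0.26).

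MNT and MGA moved in fewer comparisons. MNT is found in most cell types, with MYC as its main counterpart. It was at 51.9 and 51.3 CPM in MV4-11 without drug at 8 h, 44.6 and 46.8 with 8CA, and 39.5 and 43.2 under 8AA. It fell by 0.32 on the log2 scale with 8AA (SE 0.06, adjusted p 0.00146), 8CA gave -0.17 ± 0.06 (adjusted p 0.0901), and none of its other 6 drug comparisons was called. The remaining MNT values were 48.2 to 55.5 CPM at 24 h in MV4-11 and 21.5 to 30.1 in KG-1a, where the 24 h libraries lay above those of 8 h. There 8CA at 24 h gave 0.16 ± 0.07 (adjusted p 0.0651), called with library size alone (0.19) and upper-quartile scaling (0.20). In MV4-11 8AA at 24 h gave 0.11 (adjusted p 0.180), called with library size alone (0.17). MGA, the giant scaffold that joins MAX to a Polycomb complex, rose with 8CA at 24 h in both lines. In MV4-11 it went from 180 and 164 CPM to 254 and 246 (0.54 ± 0.06, adjusted p 5.51e-06), and in KG-1a from 111 and 109 CPM to 143 and 144 (0.39 ± 0.05, adjusted p 3.57e-05). The treated pairs lay above every other library of their line. At 8 h no MGA change was called, with levels of 151 to 178 CPM in MV4-11 and 105 to 125 in KG-1a. With 8AA at 24 h MGA gave 0.16 ± 0.06 in MV4-11 (adjusted p 0.0563) and -0.08 ± 0.06 in KG-1a (adjusted p 0.259, -0.16 and called without 8AA library B). The MV4-11 value was called without untreated library A (0.23), with library size alone (0.22), upper-quartile scaling (0.20), no filter (0.17), 10 counts in every library (0.18), all 24 libraries (0.19) and only 6 libraries (0.17).

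**Figure D2:**
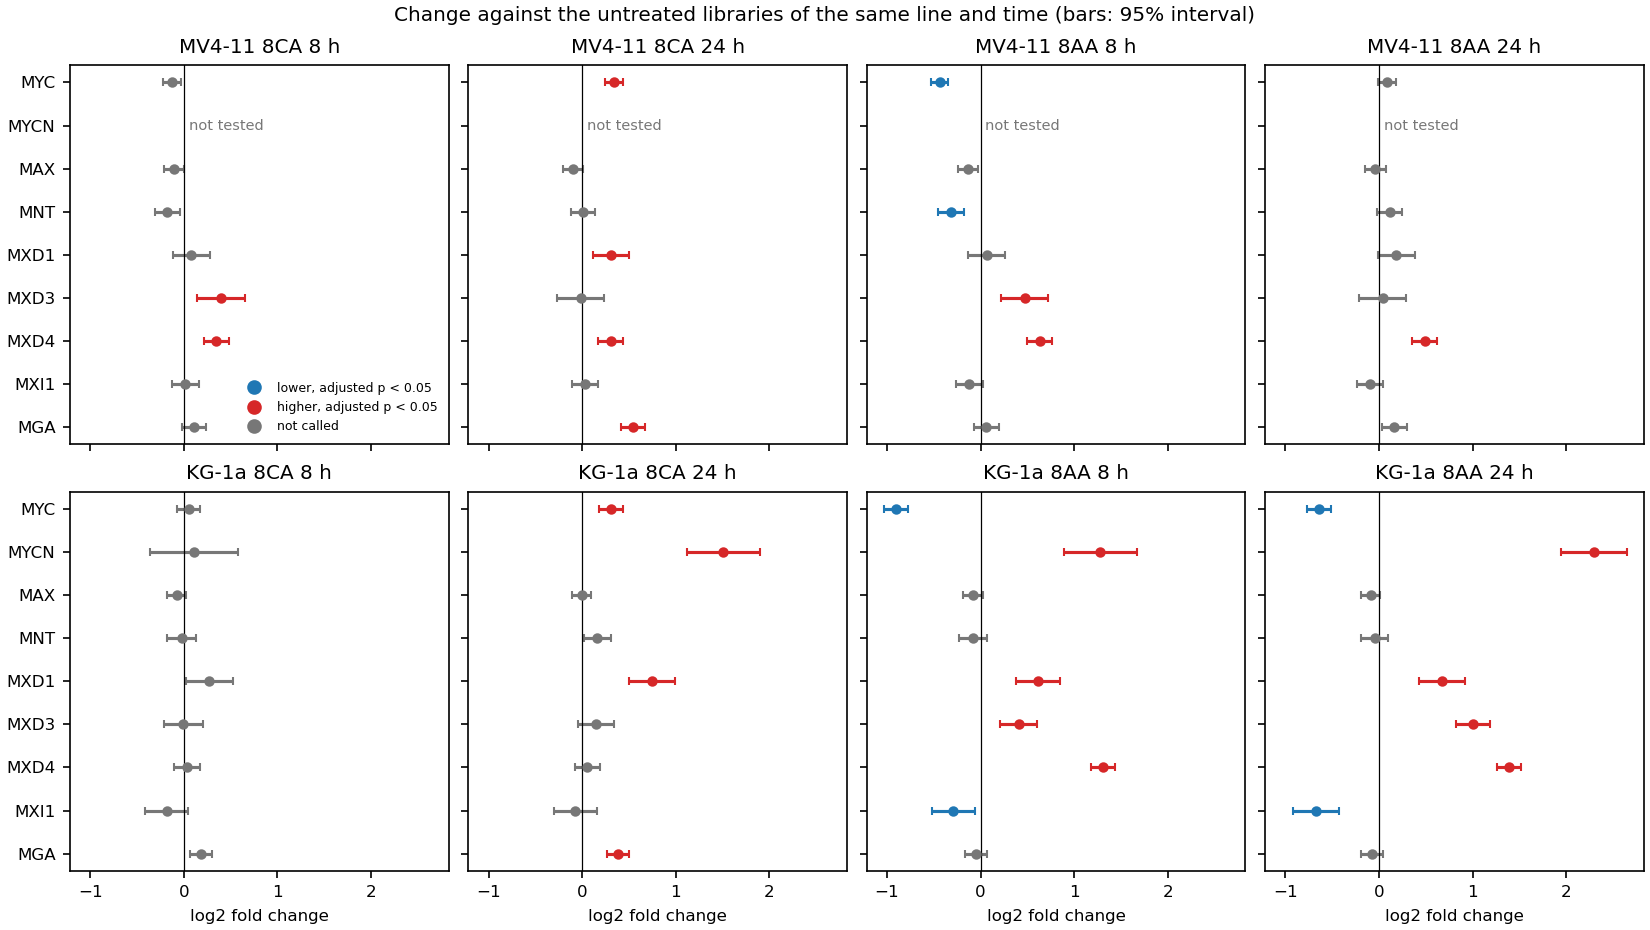
Log2 fold change of each member against untreated libraries of the same line and time, with 95% intervals, in the 8 drug comparisons. Blue points are called lower and red points higher at an adjusted p below 0.05, and grey points are not called. In KG-1a with 8AA at 24 h the members run from -0.67 for MXI1 to 2.30 for MYCN, while MAX stays between -0.14 and -0.01 in all 8.

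Counted together against the share of all genes called, the members called in MV4-11 were 2 of 8 with 8CA at 8 h, both higher, where 10.4% of all genes were called (5.77% lower and 4.58% higher). With 8AA at 8 h they were 4 of 8, 2 lower and 2 higher, of 29.2% (15.6% and 13.6%). At 24 h they were 4 of 8 with 8CA, all higher, of 43.9% (22.7% and 21.2%), and 1 of 8 with 8AA, higher, of 29.1% (15.3% and 13.9%). In KG-1a they were 0 of 9 with 8CA at 8 h, where 0.881% of all genes were called (0.181% lower and 0.700% higher). With 8AA at 8 h they were 6 of 9, 2 lower and 4 higher, of 34.7% (18.0% and 16.7%). At 24 h they were 4 of 9 with 8CA, all higher, of 47.4% (24.0% and 23.4%), and 6 of 9 with 8AA, 2 lower and 4 higher, of 51.9% (26.6% and 25.4%). For the 0 of KG-1a with 8CA at 8 h, 2 members (MXD1 and MGA) had an unadjusted p below 0.05 and DESeq2 called 0. MYCN entered no MV4-11 test because it had no counts there. At 24 h the shares of members called were near the shares of all genes, or below them for 8AA in MV4-11.

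The network's make-up by transcript level followed these changes. Of the length-scaled level of all MAX partners (MYC, MYCN and the 6 antagonists), MYC and MYCN held 86.7% to 86.8% in untreated KG-1a at 8 h, 86.6% to 86.9% with 8CA and 70.5% to 72.1% with 8AA (range of 2 libraries). At 24 h the shares were 83.7% to 84.5%, 84.9% to 85.3% and 67.5% to 69.9%. MXD4 alone went from 3.45% to 3.54% without drug to 12.8% to 13.3% with 8AA at 8 h, and from 4.36% to 4.47% to 14.1% to 14.5% at 24 h. The ratio of MYC and MYCN to the antagonists was 6.51 to 6.57 in untreated KG-1a at 8 h and 2.39 to 2.58 with 8AA. In MV4-11 the share of MYC was 82.4% without drug, 79.7% to 80.1% with 8CA and 76.1% to 76.2% with 8AA at 8 h, and 78.7% to 79.1%, 79.8% to 80.8% and 78.2% to 78.5% at 24 h. Levels of transcripts do not give the amounts of the proteins or of their pairs with MAX.

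**Figure D3:**
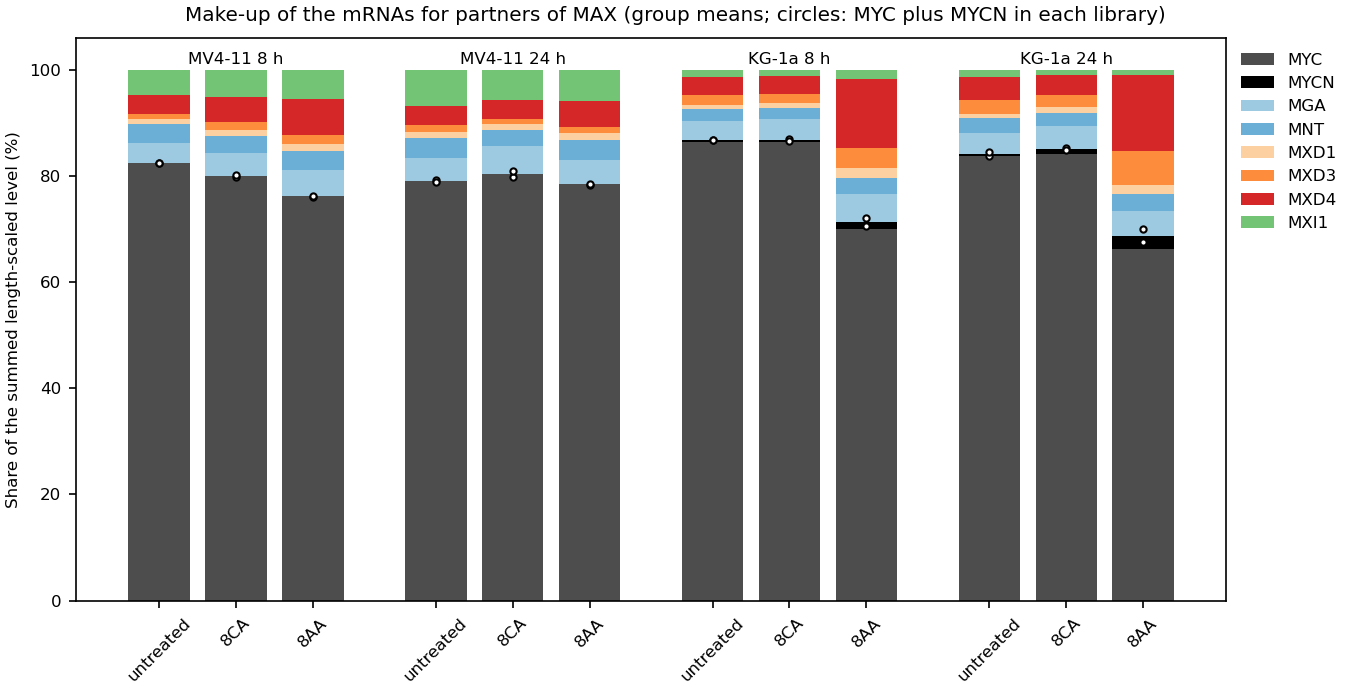
Share of the summed length-scaled level (CPM per kb, in percent) of the MAX partners held by each factor, as stacked bars of group means, with circles for the share of MYC and MYCN in each library. The KG-1a bars with 8AA stand apart, with MYC and MYCN at 67.5% to 72.1% in the 4 libraries.

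8CA and 8AA are adenosine analogs that differ at position 8 of the purine ring, which bears chlorine in 8CA and an amino group in 8AA. Both were given at 1 µM, so the 4 pairs of matched line and time could be tested directly, with p-values adjusted over all genes in each pair. Between the drugs, 2 of 8 members were called in MV4-11 at 8 h, 1 lower and 1 higher with 8AA, where 6.66% of all genes were called (3.70% lower and 2.96% higher). At 24 h they were 3 of 8, 2 lower and 1 higher, of 21.2% (9.48% and 11.7%). In KG-1a they were 6 of 9 at 8 h, 2 lower and 4 higher, of 30.4% (15.8% and 14.7%), and 7 of 9 at 24 h, 4 lower and 3 higher, of 42.0% (21.7% and 20.3%). MYC and MXD4 differed in all 4 pairs, MYC lower and MXD4 higher with 8AA.

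MYC was lower with 8AA than with 8CA, with a difference of -0.31 ± 0.04 at 8 h (adjusted p 0.000814) and -0.25 ± 0.04 at 24 h (adjusted p 0.00101) in MV4-11. In KG-1a the difference was -0.96 ± 0.06 (adjusted p 2.25e-08) and -0.95 ± 0.06 (adjusted p 6.47e-09), the latter -1.06 without 8AA library A and -0.85 without B. MXD4 was higher with 8AA in KG-1a by 1.27 ± 0.06 (adjusted p 8.69e-10) and 1.34 ± 0.06 (adjusted p 7.04e-11), the latter 1.27 or 1.40 without 8AA library A or B. In MV4-11 MXD4 was higher by 0.29 ± 0.06 at 8 h (adjusted p 0.0100), a call lost without 8CA library A (0.25) or 8AA library B (0.22). At 24 h it was higher by 0.18 ± 0.06 (adjusted p 0.0464), and this call was lost whenever any 1 of the 4 libraries was left out, with values of 0.14 and 0.21 without 8CA A and B and 0.20 and 0.15 without 8AA A and B. It was also lost with DESeq2 size factors (0.18), no filter (0.17), 10 counts in every library (0.18) and DESeq2's test (0.18).

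MYCN was higher with 8AA in KG-1a by 1.17 ± 0.18 at 8 h (adjusted p 0.000176) and 0.79 ± 0.13 at 24 h (adjusted p 0.000193), the latter 0.59 or 0.94 without 8AA library A or B. MXD3 was higher there by 0.41 ± 0.09 (adjusted p 0.00321) and 0.86 ± 0.08 (adjusted p 8.24e-07, 0.74 or 0.95 without 8AA library A or B). MXI1 was lower with 8AA at 24 h, with a difference of -0.60 ± 0.12 (adjusted p 0.000703, -0.42 or -0.77 without A or B) and had a difference of -0.11 at 8 h, with a 95% interval of -0.34 to 0.12. MGA was lower with 8AA at 24 h in both lines, with differences of -0.38 ± 0.06 in MV4-11 (adjusted p 0.000495) and -0.46 ± 0.05 in KG-1a (adjusted p 7.38e-06, -0.39 or -0.54 without A or B). In KG-1a at 8 h MGA was lower, with a difference of -0.22 ± 0.05 (adjusted p 0.00615), a call lost without 8CA library B (-0.20).

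MXD1 was called between the drugs in 1 of the 4 pairs, KG-1a at 8 h, by 0.34 ± 0.11 (adjusted p 0.0268), a call lost without 8CA library A (0.39), 8CA library B (0.30) or 8AA library B (0.25) and by DESeq2's test (0.33). At 24 h its difference there was -0.07 with an interval of -0.29 to 0.15 (0.08 or -0.23 without 8AA library A or B). MNT was lower with 8AA in KG-1a at 24 h, with a difference of -0.21 ± 0.07 (adjusted p 0.0218), a call lost without 8CA library A (-0.19), 8CA library B (-0.23) or 8AA library B (-0.18), with library size alone (-0.14), upper-quartile scaling (-0.17) and DESeq2's test (-0.21). MAX was called between the drugs in none of the 4 pairs, with intervals inside -0.19 to 0.17. Its KG-1a value at 24 h, -0.08, was -0.13 and called without 8AA library A.

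**Figure D4:**
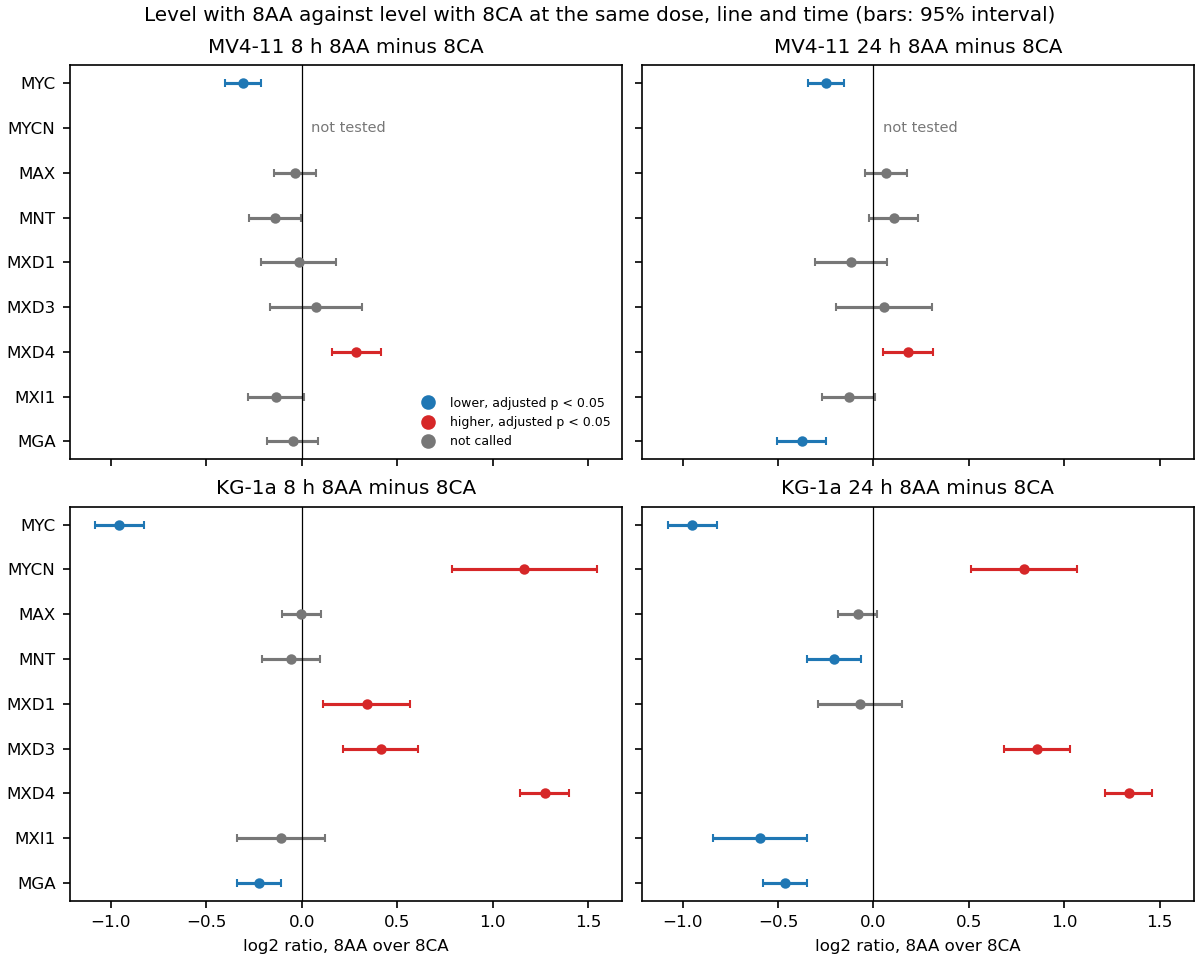
Difference of each member's level between 8AA and 8CA (log2, 8AA minus 8CA) with 95% intervals, in 1 panel for each line and time. Points are blue where called lower with 8AA, red where called higher and grey where not called. MYC lies left of 0 and MXD4 right of 0 in all 4 panels, and the KG-1a panels spread from -0.96 to 1.34.

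In a list of 32 known MYC target genes, chosen with earlier results of these data in view, 23 to 31 were called lower in 7 of the 8 drug comparisons and 0 in the other. The 7 include both with 8CA at 24 h, where MYC itself rose. The list held genes of ribosome biogenesis, metabolism and the cell cycle, all tested in both lines. In MV4-11, 23 were lower with 8CA at 8 h (list median -0.20), 30 with 8AA at 8 h (-0.37), 26 lower and 1 higher with 8CA at 24 h (-0.27) and 27 lower with 8AA at 24 h (-0.24). Over all genes the shares called lower there were, in the same order, 5.77%, 15.6%, 22.7% and 15.3%. In KG-1a, 0 were called with 8CA at 8 h (-0.06), 27 lower with 8AA at 8 h (-0.36), 29 lower and 1 higher with 8CA at 24 h (-0.42), and 31 lower with 8AA at 24 h (-0.85, and again 31 with either 8AA library left out). The shares of all genes called lower were 0.181%, 18.0%, 24.0% and 26.6%. The median over all genes tested stayed within 0.0134 of 0 in these 8 comparisons. The scaling between libraries largely sets this median, so it is no separate contrast to the list. Every count above 0, save the 31 of KG-1a with 8AA at 24 h, was lower with any 1 of its libraries left out. The 23 of MV4-11 with 8CA at 8 h became 15 with only the 6 libraries of that line and time. The 26 and 27 of MV4-11 at 24 h were each as low as 21 under other alternatives. For the 0 of KG-1a with 8CA at 8 h, 8 targets had an unadjusted p below 0.05 and DESeq2 called 0. Without drug, 5 of the 32 were lower at 24 h than at 8 h in MV4-11 and 11 in KG-1a. The shares of all genes called lower between these times were 2.16% and 1.97%.

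The 5 targets named here are those called in all 4 comparisons at 24 h whose smallest change was largest. They come from 24 of the 32 targets with 4 lower calls at that time, against 7.64% of all genes tested in both lines. HSPE1, a mitochondrial chaperonin, fell in all 4 comparisons at 24 h, at -0.88 and -0.61 with 8CA and 8AA in MV4-11 and -1.06 and -0.996 in KG-1a. Its partner HSPD1 was at -0.43, -0.41, -0.71 and -1.03 in the same order. LDHA, lactate dehydrogenase, was at -0.97, -0.56, -1.07 and -0.89. NME1, a nucleoside diphosphate kinase, was at -0.52, -0.45, -0.88 and -1.03, and NCL, the nucleolar protein nucleolin, at -0.42, -0.38, -0.50 and -0.80. All of these passed the test. The lone target that rose was CCND2, cyclin D2, with 8CA at 24 h in MV4-11 (0.34 ± 0.05) and in KG-1a (0.13 ± 0.05). Between the drugs, 15 targets were lower with 8AA in MV4-11 at 8 h, 3 lower and 4 higher at 24 h, 26 lower in KG-1a at 8 h, and 24 lower and 1 higher at 24 h. The shares of all genes called lower and higher with 8AA were 3.70% and 2.96%, then 9.48% and 11.7%, in MV4-11. In KG-1a they were 15.8% and 14.7%, then 21.7% and 20.3%. The MV4-11 counts at 24 h lie near their shares.

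**Figure D5:**
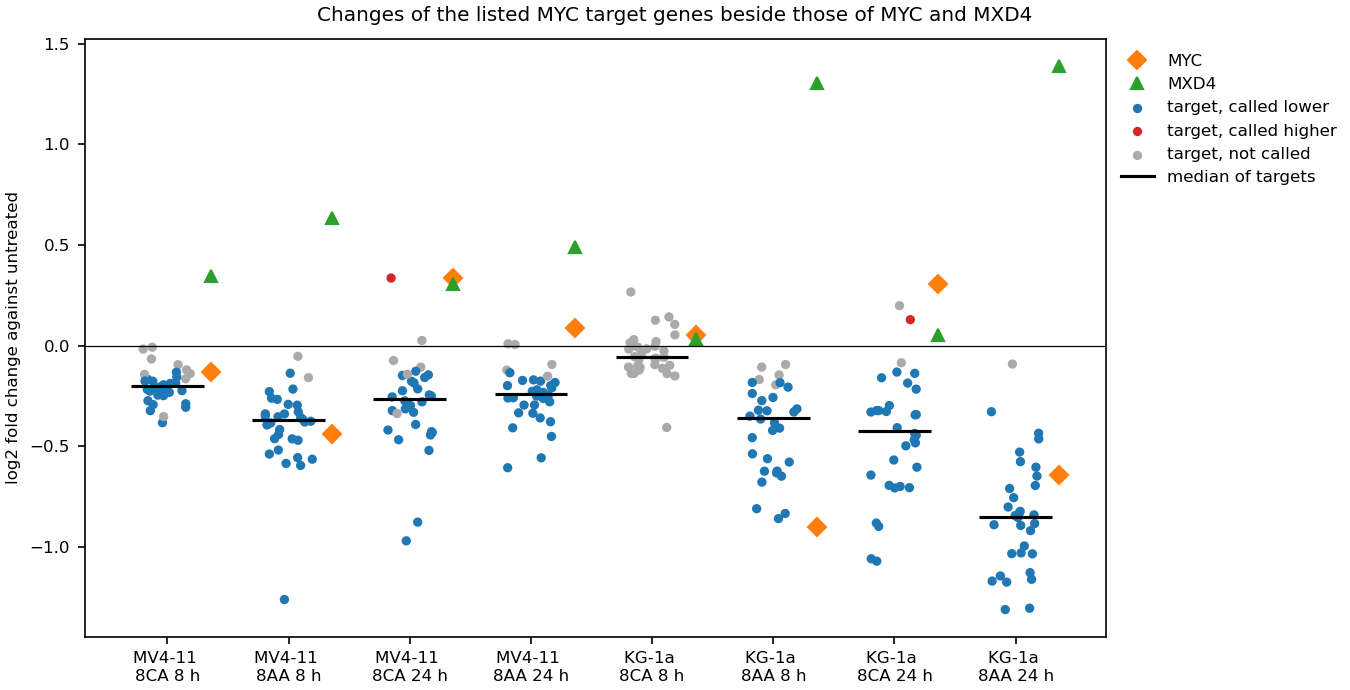
Log2 fold change of the 32 MYC target genes against untreated libraries in the 8 drug comparisons (points), with their median (bar) and the values of MYC and MXD4 (markers). With 8CA at 24 h MYC lies above 0, at 0.34 and 0.31, while the target medians lie at -0.27 and -0.42.

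Other groups of the pathway showed smaller and mixed changes. Their list medians over the 8 drug comparisons ran from -0.17 to -0.01 for cofactors, -0.17 to -0.01 for corepressors, -0.25 to 0.00 for the MGA complex, -0.16 to -0.03 for protein stability, -0.24 to 0.02 for the MLX branch and -0.31 to -0.01 for locus and mRNA regulators. WDR5, HDAC1 and HDAC2 each stand in 2 of the lists. Counts are given in the order 8CA 8 h, 8AA 8 h, 8CA 24 h and 8AA 24 h. In that order the shares of all genes called lower were 5.77%, 15.6%, 22.7% and 15.3% in MV4-11 and 0.181%, 18.0%, 24.0% and 26.6% in KG-1a. The shares called higher were 4.58%, 13.6%, 21.2% and 13.9%, and 0.700%, 16.7%, 23.4% and 25.4%. Several counts lie near these shares, and nothing particular to a list is read from them. At 24 h, 7.64% of all genes tested in both lines had 4 lower calls (1 per drug and line) and 4.01% had 4 higher calls. With 4 lower calls there were 4 of 17 cofactors, 2 of 10 corepressors, 4 of 12 MGA complex subunits and 3 of 20 stability genes. In the MLX branch there was 1 of 2, and among locus and mRNA regulators 4 of 9. The genes named below were picked for such calls, and 0 genes of these lists had 4 higher calls. Of 17 cofactors of MYC, such as the acetyltransferase scaffold TRRAP, those lower were 0, 10, 6 and 7 in MV4-11 and 0, 6, 6 and 9 in KG-1a. Those higher were 1, 2, 5 and 0, and 0, 0, 5 and 3. The ATPases RUVBL1 and RUVBL2, the chromatin subunit ACTL6A and WDR5 fell in all 4 comparisons at 24 h, RUVBL1 at -0.43, -0.26, -0.54 and -0.83 (8CA and 8AA in MV4-11, then in KG-1a). Of 10 corepressors of the MXD and MNT proteins, 1, 1, 5 and 2 were lower and 0, 0, 3 and 1 higher in MV4-11, and 0, 2, 6 and 5 lower and 0, 1, 4 and 0 higher in KG-1a. The deacetylase HDAC2 and the histone chaperone RBBP7 fell in all 4 at 24 h.

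Of 12 subunits of the complex around MGA, 3, 6, 6 and 4 were lower and 0 higher in MV4-11, and 0, 5, 6 and 7 were lower and 0, 0, 1 and 1 higher in KG-1a. Its DNA-binding partner TFDP1 was at -0.55, -0.35, -0.53 and -0.60 at 24 h, all called, and CBX3 fell in all 4 too. Among genes that set MYC protein stability, 20 tested in MV4-11 and 21 in KG-1a, 3, 6, 9 and 6 were lower and 0, 1, 3 and 1 higher in MV4-11, with 0, 6, 9 and 9 lower and 0, 1, 6 and 3 higher in KG-1a. The ubiquitin ligase subunit SKP2 was at -0.53, -0.29, -0.45 and -0.28 at 24 h, and the phosphatase subunit PPP2CA and its inhibitor SET fell in all 4 as well. In the parallel MLX branch and MYCL, with 4 genes tested in MV4-11 and 2 in KG-1a, 1 was lower in each MV4-11 comparison, and 0, 1, 2 and 1 lower with 0, 0, 0 and 1 higher in KG-1a. MLX, the partner in that branch, fell in all 4 at 24 h. Of 10 regulators of the MYC locus and mRNA, 1, 6, 5 and 6 were lower and 0, 0, 1 and 1 higher in MV4-11, and 0, 4, 5 and 6 lower and 0, 1, 1 and 0 higher in KG-1a. The RNA-binding proteins ELAVL1, HNRNPD, PTBP1 and HNRNPK fell in all 4 at 24 h, ELAVL1 at -0.47, -0.34, -0.41 and -0.34.

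The genes whose levels over the 24 libraries were most like those of MYC, each line centred on its own mean, were SLC7A5, an amino acid transporter (Pearson r 0.94), PER2, a circadian repressor (0.94), USP36, a nucleolar deubiquitinase that also stands among the stability genes (0.93), FOXP4 (0.92) and ZNF512B (0.91), out of 11484 genes tested in both lines. Within each line r was 0.70 to 0.92 in MV4-11 and 0.93 to 0.98 in KG-1a for these genes. All of these points share the same libraries and drugs, and the values are a description. SLC7A5 was lower with 8AA than with 8CA, with differences of -0.57 and -0.80 in MV4-11 and -1.70 and -2.32 in KG-1a at 8 h and 24 h. Of the members, r with MYC over the 24 libraries was -0.87 for MXD4, -0.64 for MXD3, -0.32 for MXD1, 0.43 for MAX and MNT, 0.56 for MGA and 0.59 for MXI1. For the members it was not taken within each line. In MV4-11 with 8CA at 24 h MYC and MXD4 both rose, by 0.34 and 0.31.

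The lines differed in their response to 8AA in several members, with the fit over all 24 libraries and MYCN without a usable test. Called differences numbered 0 of 8 for 8CA at 8 h, where 1.15% of all genes were called (0.726% lower and 0.427% higher in MV4-11), and 3 of 8 for 8AA at 8 h, 2 lower and 1 higher, of 11.1% (3.60% and 7.49%). At 24 h they numbered 0 of 8 for 8CA, of 11.2% (5.44% and 5.76%), and 6 of 8 for 8AA, 3 lower and 3 higher, of 22.3% (8.51% and 13.8%). For the 0 counts, 3 and 2 members had an unadjusted p below 0.05 and DESeq2 called 0 in both. The MXD4 response to 8AA was smaller in MV4-11, with a difference of -0.63 ± 0.09 at 8 h (adjusted p 4.29e-05) and -0.88 ± 0.09 at 24 h (adjusted p 1.34e-07, -0.81 or -1.02 without KG-1a 8AA library A or B). The MYC change was higher in MV4-11, by a difference of 0.51 ± 0.08 (adjusted p 0.000146) and 0.75 ± 0.08 (adjusted p 2.80e-07, 0.86 or 0.57 without A or B). Of the 32 MYC targets, 28 had a higher change in MV4-11 with 8AA at 24 h and 0 a lower one (list median 0.61). CD3E, the marker of another cell type that KG-1a expressed, was at 24.8 to 25.5 CPM without drug and 28.1 to 33.6 with 8AA at 8 h, and at 36.3 to 36.6 and 67.0 to 78.3 at 24 h. It was higher with 8AA in that line by 0.31 ± 0.10 at 8 h (adjusted p 0.0233) and 1.00 ± 0.09 at 24 h (adjusted p 1.81e-07), and its part in these responses was not tested.

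The drug changes themselves differed between times. Taking the change at 24 h minus the change at 8 h, the members called were all higher at 24 h. They were 2 of 8 for 8CA in MV4-11 (MYC and MGA), where 16.3% of all genes were called (9.83% lower and 6.48% higher), and 2 of 8 for 8AA (MYC and MNT) of 4.63% (2.12% and 2.51%). In KG-1a they were 3 of 9 for 8CA (MYC, MYCN and MXD1) of 23.9% (12.7% and 11.2%), and 3 of 9 for 8AA (MYC, MYCN and MXD3) of 18.3% (10.7% and 7.64%). In KG-1a the MXD1 call for 8CA (0.47) was lost on leaving out any 1 of its 8 libraries, with values of 0.39 to 0.55.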

How the data were processed

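RNA of MV4-11 and KG-1a cells was sequenced in 24 libraries, 2 per group, prepared with the QIAGEN RNeasy Micro Kit. The authors deposited raw counts of reads per gene for 23354 genes. The submitters' processing notes name Trimmomatic, STAR 2.6.0, HTSeq 0.11.1, edgeR, and the builds hg19 and hg38 without roles. None of the 9 members' starts lay within 1000 bases of its GRCh38 RefSeq start, so coordinates were read as hg19. Whether counting used strand is not given in the sources used here.

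Counts were tested with edgeR 4.0.16 (R 4.3.3, limma 3.58.1), with genes kept by filterByExpr (minimum count 10), TMM scaling, quasi-likelihood test, Benjamini-Hochberg adjustment, threshold 0.05. The 12 libraries of a line were fitted together (12800 genes in MV4-11, 12711 in KG-1a), and all 24 for contrasts between lines (14055 genes). Standard errors are the log2 fold change over the square root of F, and intervals cover 95%. Levels are TMM-scaled CPM per line, and per-kb levels divide those of the fit over all libraries by the deposited exon length. Intervals include the spread between libraries, and the floor of 3 counts covers counting error only. Alternatives were DESeq2 1.42.0, other scalings and filters, a replicate block, other sets of libraries and each library left out. The scripts were tested on simulated data.

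The members and gene lists were chosen with earlier results of these data known. All members are named, and from each list at most 5 genes per direction that were called the same way in all 4 comparisons at 24 h, ranked by their smallest change. Genes like MYC are the 5 of highest Pearson r on log2 CPM (prior count 2, with the same 5 at 0.5).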

Additional observations from a re-analysis of the deposited data

Results flagged for a closer look

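Drug changes that differed between 8 h and 24 h are given first, as the later change minus the earlier one in the edgeR fit, with p-values adjusted over all genes.

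The MYC change was higher at 24 h in every drug and line, by 0.47 ± 0.06 (8CA, adjusted p 0.000188) and 0.53 ± 0.06 (8AA, adjusted p 0.00063) in MV4-11, and by 0.26 ± 0.08 (8CA, adjusted p 0.0360) and 0.26 ± 0.08 (8AA, adjusted p 0.0415) in KG-1a. The KG-1a 8CA call was lost on leaving out any library but untreated 8 h B, with values of 0.20 to 0.28. The KG-1a 8AA call was lost without untreated 8 h A (0.21) or B (0.29), 8AA 8 h A (0.31) or B (0.21), or untreated 24 h A (0.22) or B (0.28). Without 8AA 24 h library A it was 0.15 and still called, and without B 0.36. Untreated MYC was itself lower at 24 h, as given above.

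In MV4-11 the MGA change was higher at 24 h with 8CA by 0.43 ± 0.09 (adjusted p 0.00343), and the MNT change with 8AA by 0.43 ± 0.09 (adjusted p 0.0132), a call lost without untreated 24 h library B (0.40). In KG-1a the MYCN change was higher by 1.40 ± 0.29 with 8CA (adjusted p 0.00276) and by 1.02 ± 0.26 with 8AA (adjusted p 0.0144). The latter call was lost without untreated 8 h library B (1.00) or untreated 24 h library B (0.93), and the value was 0.82 or 1.17 without 8AA 24 h library A or B. The MXD3 change with 8AA was higher by 0.60 ± 0.13 (adjusted p 0.0038, 0.48 or 0.69 without 8AA 24 h library A or B). The MXD1 change with 8CA was higher by 0.47 ± 0.17 (adjusted p 0.0489), a call lost without any 1 of its 8 libraries, at 0.39 to 0.55, and by DESeq2's test (0.48).

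Drug changes that differed between the lines, as MV4-11 minus KG-1a, all concerned 8AA. At 8 h they were 0.51 for MYC, -0.63 for MXD4 and -0.51 ± 0.15 for MXD1 (adjusted p 0.0267). The MXD1 call was lost without MV4-11 untreated A (-0.52) or B (-0.50), MV4-11 8AA B (-0.38), KG-1a untreated A (-0.48) or B (-0.55), or KG-1a 8AA B (-0.42).

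At 24 h they were 0.75 for MYC, -0.88 for MXD4, -0.95 ± 0.15 for MXD3 (adjusted p 4.27e-05), 0.59 ± 0.13 for MXI1 (adjusted p 0.00184), -0.47 ± 0.15 for MXD1 (adjusted p 0.0245) and 0.26 ± 0.09 for MGA (adjusted p 0.0343). Without KG-1a 8AA library A or B the MXD3 difference was -0.83 or -1.12 and the MXI1 difference 0.42 or 0.69. The MXD1 call was lost without MV4-11 untreated A (-0.45), MV4-11 8AA B (-0.42), KG-1a untreated B (-0.39) or KG-1a 8AA B (-0.39). The MGA call was lost without MV4-11 untreated B (0.20), MV4-11 8AA B (0.24), KG-1a untreated A (0.25) or B (0.28), or KG-1a 8AA A (0.19), and under DESeq2 size factors (0.24), library size alone (0.20), upper-quartile scaling (0.21), no filter (0.19), 10 counts in every library (0.20) and DESeq2's test (0.24).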

How the results depend on the processing

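No called value of a member reversed its sign under any alternative run. Of 207 values of single members, 203 kept their side of the threshold with DESeq2 size factors, 198 with library size alone, 200 with upper-quartile scaling and 201 with no filter on low counts. Library size alone moved the median of all genes in KG-1a with 8AA at 24 h by 0.108 (log2) and the share of lower calls from 51.2% to 35.5%. DESeq2's test kept 195 of 204 values, and 7 were no longer called. Members called in MV4-11 with 8CA at 8 h numbered 1 in place of 2 with DESeq2 size factors and with only the 6 libraries of the line and time. In MV4-11 with 8AA at 24 h they numbered 4 with library size alone, 3 with upper-quartile scaling, and 2 in place of 1 with no filter, with 10 counts in every library, with all 24 libraries in one fit and with only 6 libraries. In KG-1a with 8CA at 8 h they numbered 1 in place of 0 with only 6 libraries. For untreated KG-1a at 24 h against 8 h they numbered 1 in place of 0 with no filter, with DESeq2 and with all 24 libraries. For the difference between lines they numbered 1 in place of 0 for 8CA at 8 h with library size alone, and for 8CA at 24 h with library size alone, with no filter and with 10 counts in every library.

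Leaving out each library in turn gave 1 to 2 members called in MV4-11 with 8CA at 8 h, 1 to 2 with 8AA at 24 h, 1 to 2 for 8AA against 8CA at 8 h, 1 to 2 for the time difference of 8AA, and 0 to 2 for untreated 24 h against 8 h. In KG-1a it gave 1 to 3 for the time difference of 8CA and 1 to 4 for that of 8AA. Member counts also moved in MV4-11 with 8AA at 8 h and 8CA at 24 h, and in KG-1a with 8AA at both times. So did those for 8AA against 8CA in MV4-11 at 24 h and in KG-1a at both times. The same held for the line difference of 8AA at both times and for the untreated lines at 8 h. A group left with 1 library was assumed to vary like the other groups.

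The letters A and B are shared between groups, but same-lettered libraries deviated together only weakly (median r 0.078 in MV4-11 and 0.024 in KG-1a over 15 pairs of groups, above 0.1 in 6 and 2). The main fit therefore took them to share a letter only. A replicate block raised the genes called in MV4-11 from 1325 to 1976 with 8CA at 8 h. With 8AA it raised them there from 3742 to 4444 at 8 h and from 3726 to 4460 at 24 h. In KG-1a with 8CA at 8 h it raised them from 112 to 205. Whether same-lettered libraries were handled together was not tested. With a replicate block 202 of 207 values kept their side and 5 were newly called. In MV4-11 these were MYC with 8CA at 8 h (-0.13, adjusted p 0.0154), MAX with 8AA at 8 h (-0.14, adjusted p 0.0373), MGA with 8AA at 24 h (0.16, adjusted p 0.0334, giving 2 members in place of 1) and the MXD3 change with 8CA at 24 h minus that at 8 h (-0.41, adjusted p 0.0452). In KG-1a it was MYC without drug at 24 h against 8 h (-0.19, adjusted p 0.0286, giving 1 in place of 0). The cause of these changes was not tested. Depth limits MYCN most, at 37 to 50 counts in untreated and 8 h 8CA libraries of KG-1a.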

Other observations

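PVT1, a noncoding gene beside MYC that was singled out from the list of locus and mRNA regulators after its values were seen, was higher in MV4-11 at 24 h with 8CA (0.39 ± 0.06, adjusted p 0.000114) and 8AA (0.23 ± 0.06, adjusted p 0.0110). In KG-1a it was lower with 8AA at 8 h (-0.44 ± 0.10, adjusted p 0.00231) and at 24 h (-0.32 ± 0.10, adjusted p 0.0120), and 8CA gave -0.11 ± 0.09 and 0.13 ± 0.09 (adjusted p 0.705 and 0.284), all by edgeR's quasi-likelihood test over all genes.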
